A study of Mus musculus with 22 samples.

Results

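The 5 miRNAs described here, listed on the panel as mmu-miR-143, mmu-miR-145, mmu-miR-1, mmu-miR-133a and mmu-miR-133b, are known markers of smooth muscle, stroma and striated muscle. They were chosen by name from the 566 mouse miRNAs on the NanoString panel and were followed over all 22 samples of a mouse study of cancers that start in the fallopian tube (FT). The 15 tissue samples were 5 uninduced control FT (CT), 5 doxycycline-induced FT and 5 metastatic tumors (M), of which M1 to M4 were peritoneal and M6 was an ovarian tumor. The 7 plasma samples were 3 from control mice (CS) and 4 from mice with tumors (TS), whose titles say plasma while their source is given as serum. All mice carried conditional alleles, among them one of Brca1 or Brca2, together with a doxycycline-inducible Cre driven by Pax8, a gene of the secretory cells of the tubal epithelium, so control FT carried floxed alleles without induction.

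For the Brca genes, CT1 and CT3 were Brca1 fl/fl, CT2 Brca1 fl/+, CT4 Brca2 fl/fl and CT5 Brca2 fl/+. FT1, FT3 and FT5 were Brca2 -/+, FT2 Brca1 -/- and FT4 Brca2 -/-. Among the tumors, M1 and M3 were Brca2 -/-, M2 and M6 Brca1 -/+ and M4 Brca2 -/+. The mice of CT2 to CT4 also gave the plasma CS2 to CS4, and those of FT2 to FT5 gave TS1 to TS4. Genotypes therefore differed within each group, and age and doxycycline dose are not given in the sources used here. Some metastatic tumors of the study shared a mouse with an induced FT, and these sources do not name them. By Brca genotype M4 matches FT1, FT3 and FT5, M1 and M3 match FT4, and M2 and M6 match no induced FT. M and FT were tested as separate samples.

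miR-143 and miR-145 are processed from neighbouring hairpins of one host transcript that is abundant in smooth muscle cells and fibroblasts, where both hold the contractile state of smooth muscle. miR-1 and the miR-133 family are the classical muscle miRNAs, most abundant in heart and skeletal muscle and also present in smooth muscle. They are made from paired hairpins, miR-1 with miR-133a and miR-206 with miR-133b, and act on regulators of muscle growth and differentiation. The wall of the fallopian tube is a muscle layer around a folded epithelium, so excised tubes hold both.

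Of the 5 members, 1 had a mature sequence in the RefSeq mouse miRNA table used (GRCm38.p6), and it is shown with its cluster partner miR-206 because both lie on chromosome 1 and because miR-206 serves below as a skeletal muscle marker. The capitals mark the seed, bases 2 to 8 from the 5′ end, by which a miRNA pairs with its targets.
mmu-miR-133b-3p: uUUGGUCCccuucaaccagcua
mmu-miR-206-3p: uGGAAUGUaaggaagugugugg
Both are encoded on the plus strand, miR-133b-3p at chr1:20682834-20682855 and miR-206-3p at chr1:20679055-20679076, and 3686 bases separate the hairpins. Mir1a-1 and Mir133a-2 lie on chromosome 2 at 180389048 to 180389124 and 180398379 to 180398482, with 9254 bases between them. The hairpins of miR-143 and miR-145 are separated by 1301 bases. The seed of miR-133b, UUGGUCC, thus differs from GGAAUGU, the seed of its neighbour.

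The assay counts fluorescent barcodes, one kind per miRNA probe, without amplification. Totals over the 566 miRNAs ranged from 70164 to 598321 counts in tissue and from 18350 to 269005 in plasma. Normalized counts given below are scaled by a geometric mean within each sample, over its top 100 miRNAs in tissue and its top 30 in plasma. Tissue and plasma were scaled apart, so their levels are not compared. A count was called above background when it exceeded the mean plus 2 SD of the 8 negative control probes of its own sample. FT2 stood apart from the other induced FT, with a mean correlation over 141 miRNAs of 0.584 with them and 0.743 with the M samples, and results that include FT were also computed without it. Nothing in the labels says that samples of a group came from separate litters or extractions, so p-values measure the spread between these samples only, and in bulk tissue fewer cells of a type and less of a miRNA per cell cannot be told apart.

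Among tissues, members passed the main test only between metastatic tumors and control tubes, where miR-143, miR-145 and miR-1 were all lower in M. Their log2 fold changes against induced FT, given below, were of similar size but did not pass. In M against CT, 3 of the 5 members fell and 0 rose at an adjusted p under 0.05 (edgeR quasi-likelihood test, adjusted over all 566 miRNAs). The count of members was 1 with miR-425 scaling (miR-143), 1 with ligation control scaling (miR-1) and 1 by the methods' t-test after adjustment (miR-143). Over the whole panel the main test called 46 miRNAs lower in M, or 8.13%, and 49 higher, or 8.66%, a split that became 10 lower and 70 higher with miR-425 scaling, 9 and 39 with ligation control scaling and 24 and 58 with a fixed set of miRNAs. The median log2 fold change of the 5 members was -2.34, beside 0.02 for all miRNAs.

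miR-143, which maintains the differentiated state of smooth muscle, had normalized counts of 3291, 2917, 2533, 2707 and 1961 in CT1 to CT5. In M1, M2, M3, M4 and M6 the counts were 352, 306, 379.8, 619 and 238. All M samples lay below all CT samples, as they did for 49 of the 566 miRNAs, or 8.66%, and the highest tumor, M4, remained under the lowest control, CT5. The means were 2682 ± 492 (SD, n = 5) in CT and 379 ± 144 (SD, n = 5) in M, a 7.08-fold lower mean. edgeR gave a log2 fold change of -2.82 with an SE of 0.451 and an adjusted p of 0.000365. The two-sided exact permutation test gave p = 0.00794, the smallest value that 252 splits of 5 against 5 samples allow. Raw counts were far above background in both groups, from 795 to 4253 in CT and from 163 to 353 in M.

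miR-145, its partner in the host transcript and a repressor of the factors that turn smooth muscle cells toward proliferation, reached 3692, 10491, 3249, 9299.5 and 2652 normalized counts in CT1 to CT5. The tumors M1, M2, M3, M4 and M6 held 1733, 637, 771, 2358 and 320.4. CT2 and CT4 stood well above the other controls, yet the groups did not overlap, with M4 just under CT5. The log2 fold change was -2.34 with an SE of 0.617 and an edgeR adjusted p of 0.0161. The means were 5877 ± 3711 (SD, n = 5) in CT and 1164 ± 850.4 (SD, n = 5) in M, 5.05-fold lower in M, with an exact permutation p of 0.00794. Without CT2 the edgeR adjusted p was 0.0550 at a log2 fold change of -2.02.

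miR-1, a miRNA of differentiated muscle, was measured at 443, 399, 532, 315 and 229 normalized counts in CT1 to CT5. In M1, M2, M3, M4 and M6 it was at 24.4, 10.6, 4.66, 220.0 and 31.6. M4 stood close to the lowest control, CT5, and the other 4 tumors lay far below it. The raw counts in M were 12, 12, 2, 106 and 47, and those of M4 and M6 alone were above the negative controls, so the level in M1, M2 and M3 is an upper limit. The log2 fold change was -2.73 with an SE of 0.790 (edgeR adjusted p = 0.0254, exact permutation p = 0.00794). It was -4.38 without M4, and the adjusted p rose to 0.0517 without CT1 and to 0.0568 without CT3.

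**Figure D1:**
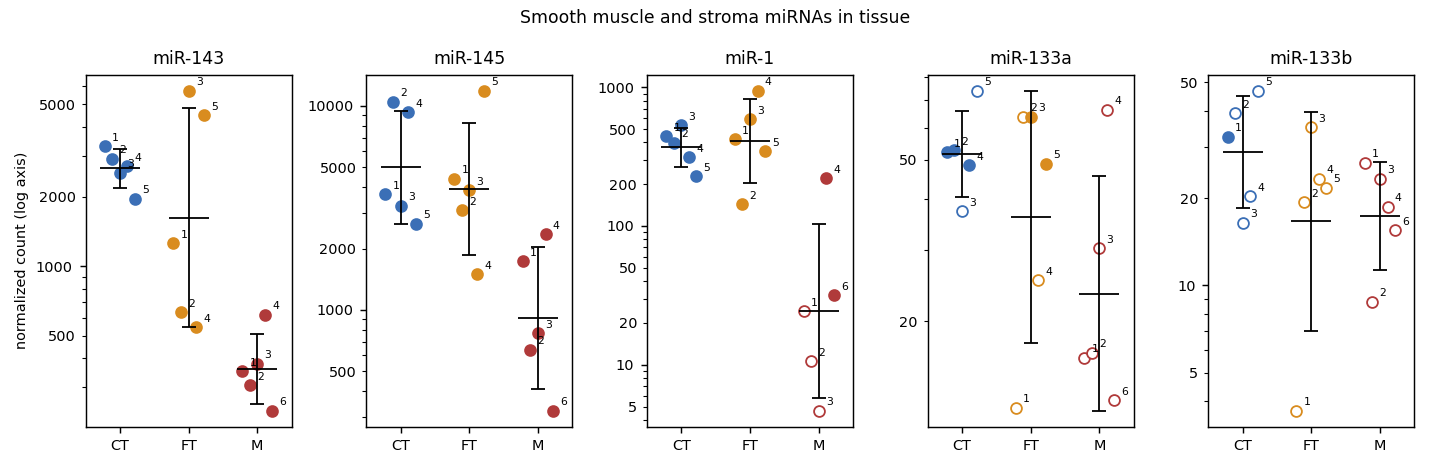
Normalized counts (log axes, one panel per miRNA) in control FT (CT), induced FT (FT) and metastatic tumors (M), with replicate numbers beside the points, filled points above the mean plus 2 SD of the sample's negative controls and open points not above it; black bars are the mean ± SD of log2 values. In the miR-143, miR-145 and miR-1 panels every M point lies below every CT point, while in the miR-133a and miR-133b panels most points are open.

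The miR-133 probes were close to background in all tissues. miR-133a, which acts beside miR-1 in muscle, was above the negative controls in 3 of 5 CT, 2 of 5 FT and 0 of 5 M samples, with raw counts of 30 to 77 in CT and 8 to 32 in M. Its normalized counts were 52.9 ± 13.3 (SD, n = 5) in CT and 28.5 ± 22.2 (SD, n = 5) in M, with a log2 fold change of -0.93, an SE of 0.447 and an edgeR adjusted p of 0.158. Tumors M1, M2, M3 and M6 lay between 12.8 and 30.3, below every control, and M4 at 66.4 lay among them. Without M4 the log2 fold change was -1.51 and the edgeR adjusted p 0.0129, the only call among 24 alternatives. M4 was the tumor that lay among the controls and no M count was above background, so this call is no independent support.

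miR-133b, whose seed is printed above, was above the negative controls in CT1 alone among the 15 tissue samples. Its raw counts ran from 15 to 57 in CT, 10 to 40 in FT and 9 to 23 in M. The log2 fold change between M and CT was -0.77 with an SE of 0.410 and an edgeR adjusted p of 0.195, and the groups overlapped.

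Between induced and control tubes, which addresses the effect of induction in the FT itself, none of the 5 members passed the threshold (0 by edgeR after adjustment, 0 at an unadjusted p under 0.05 and 0 by DESeq2), beside 1 of 566 miRNAs, or 0.177%, on the whole panel, where 37, or 6.54%, had an unadjusted p under 0.05. Their median log2 fold change was -0.25 and that of all miRNAs -0.02. The FT and M comparisons share the CT samples and are not independent of each other.

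Normalized counts of miR-143 spanned a wider range in the induced tubes than in the controls, as did most of the panel. Over the 141 miRNAs whose counts averaged at least 50 in tissue, 137, or 97.2%, had a larger SD of log2 values in FT than in CT. miR-143 was at 1258, 634, 5739, 546 and 4491 normalized counts in FT1 to FT5. FT1, FT2 and FT4 lay below every control tube and FT3 and FT5 above every control tube, so no induced FT fell inside the control range of 1961 to 3291. The highest FT was 10.5 times the lowest, while that ratio was 1.68 in CT and 2.60 in M. The mean of the counts, 2534 ± 2413 (SD, n = 5), was close to that of CT, with a log2 fold change of -0.08, an SE of 0.659 and an edgeR adjusted p of 0.973. On the log2 scale the mean was 10.66 in FT and 11.37 in CT, with an exact permutation p of 0.341. The highest over the lowest FT was 7.93 for miR-145, 6.62 for miR-1 and 13.3 for miR-199a-5p, against 3.96, 2.32 and 1.49 in CT. The difference in spread was not tested.

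miR-145 did not divide the same samples. Its normalized counts in FT1 to FT5 were 4408, 3077, 3852, 1501 and 11904, with FT4 below and FT5 above all controls and the remaining 3 inside the CT range. The log2 fold change was -0.25 with an SE of 0.660 (edgeR adjusted p = 0.875). miR-1 was at 424, 143, 589, 947 and 347 in FT1 to FT5, with FT2 below the controls and FT3 and FT4 above them, and its log2 fold change was 0.35 with an SE of 0.542 (edgeR adjusted p = 0.794). FT4 thus held the lowest miR-143 and miR-145 and the highest miR-1 of the 5 induced tubes. For miR-133a and miR-133b the log2 fold changes were -0.32 with an SE of 0.460 and -0.63 with an SE of 0.508. Without FT2 the values were 0.17 for miR-143, -0.12 for miR-145 and 0.58 for miR-1, and none passed the threshold.

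The difference between the tumors and the induced tubes was tested directly. By edgeR 0 of 5 members passed the threshold after adjustment, while 3 had an unadjusted p under 0.05 and DESeq2 called the same 3, miR-143, miR-145 and miR-1. On the whole panel edgeR called 11 of 566 miRNAs, or 1.94%, and 50, or 8.83%, had an unadjusted p under 0.05. DESeq2 called 35 miRNAs of the panel. The log2 fold changes of M over FT were -2.74 for miR-143 (SE 0.869, edgeR adjusted p = 0.110), -2.09 for miR-145 (SE 0.854, adjusted p = 0.353) and -3.08 for miR-1 (SE 0.931, adjusted p = 0.0890). Exact permutation p-values were 0.0159, 0.0238 and 0.0159 in that order. miR-143 overlapped through M4, which at 619 lay above FT4 at 546, and miR-1 through M4 at 220.0 and FT2 at 143. The fold changes of miR-133a and miR-133b were -0.60 and -0.14, both with an adjusted p of 0.997.

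Without FT2, the induced tube that stood closer to the tumors, edgeR called miR-143 (-2.99, adjusted p = 0.0283) and miR-1 (-3.31, adjusted p = 0.0258) lower in M than in FT, in a fit that called 25 of all 566 miRNAs. FT2 was set apart by its likeness to the M samples, so these values are no independent support. Leaving out M4 gave 1 call, miR-1 at -4.75 with an adjusted p of 0.00221. The median fold change of the members between M and FT was -2.09, beside -0.03 for all miRNAs.

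**Figure D2:**
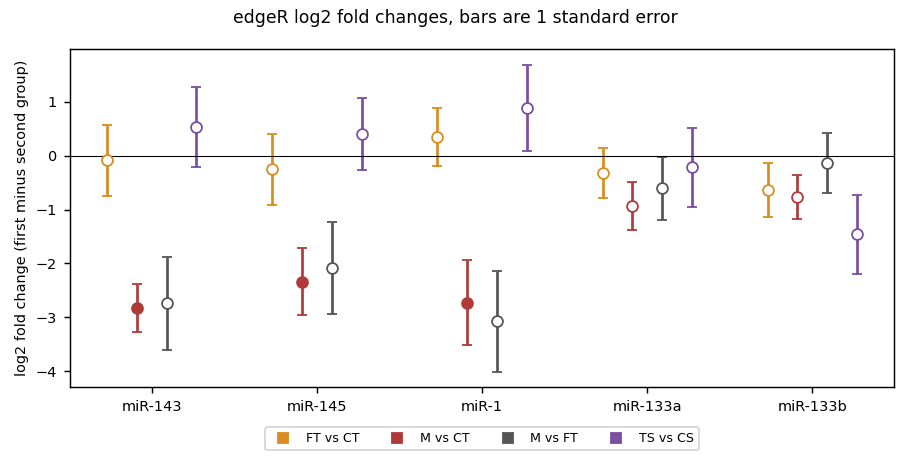
edgeR log2 fold changes of the 5 miRNAs (y axis) in 4 comparisons, with bars of 1 standard error; filled points have an adjusted p under 0.05 over all 566 miRNAs and open points do not. The filled points are those of miR-143, miR-145 and miR-1 in M vs CT, at -2.82, -2.34 and -2.73, and the open M vs FT points of the same miRNAs lie at -2.74, -2.09 and -3.08.

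Ratios of 2 miRNAs within a sample do not depend on the scaling, and 3 pairs were compared in this way: miR-143 with miR-145 and miR-1 with miR-133a, which share a hairpin cluster, and the near-identical miR-133a and miR-133b. Probes differ in efficiency, so the ratio is read between samples and not as relative abundance. In CT1 to CT5 the count of miR-143 over that of miR-145 was 0.891, 0.278, 0.780, 0.291 and 0.740. The same 2 controls that were high in miR-145, CT2 and CT4, had the low ratios, while their miR-143 counts stood with those of the other controls. Among induced tubes the ratio was 1.49 in FT3 and between 0.207 and 0.377 in the rest, and in M it ran from 0.204 to 0.742. The groups overlapped in every comparison of this ratio, and the difference in mean log2 ratio between M and CT was -0.43 (two-sided exact permutation p = 0.405, adjusted p = 0.623 over 12 tests).

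The ratio of miR-1 over miR-133a had its lowest values in the tumors but passed no adjusted test. It was 8.33, 7.47, 13.9, 6.41 and 3.03 in CT1 to CT5, and 1.44, 0.650, 0.214, 3.24 and 2.40 in M1, M2, M3, M4 and M6. M4 alone among the tumors exceeded a control, CT5. The difference in mean log2 ratio was -2.68 between M and CT and -3.33 between M and FT, with exact permutation p-values of 0.0159 and 0.0238 and an adjusted p of 0.143 for both. In the 12 tests, of 3 pairs in 4 comparisons, 0 passed the threshold after adjustment and these 2 had an unadjusted p under 0.05. For miR-133a over miR-133b the differences in mean log2 ratio ran from -0.66 to 0.99, with adjusted exact permutation p-values of 0.590 to 0.623. No M sample had miR-133a above the negative controls and M1, M2 and M3 did not have miR-1 above them either, so the miR-1 over miR-133a ratios of those 3 tumors are ratios of background counts.

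**Figure D3:**
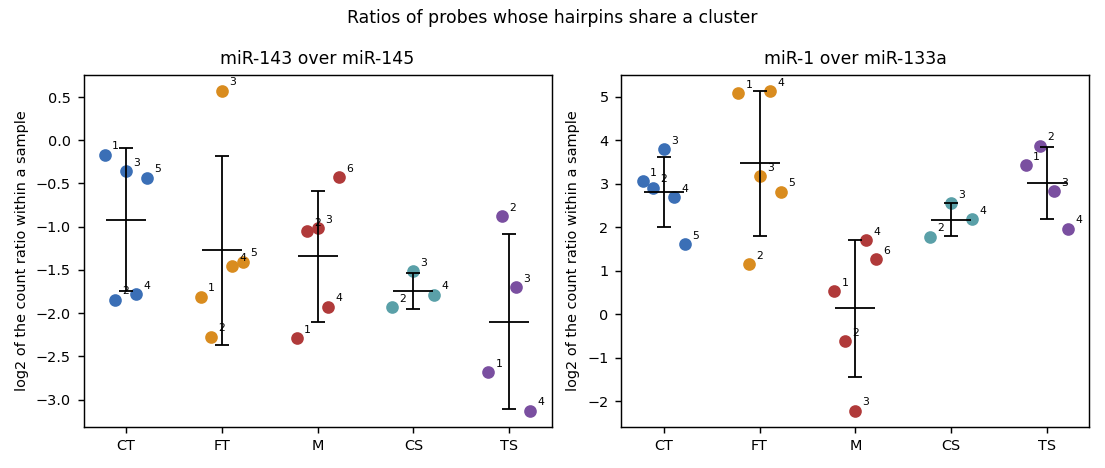
log2 of the count ratio within each sample (y axis, 1 count added to both) for miR-143 over miR-145 and miR-1 over miR-133a in the 5 groups, with replicate numbers beside the points and black bars for the mean ± SD. The miR-143 over miR-145 ratio divides CT into samples 2 and 4 and samples 1, 3 and 5, and the miR-1 over miR-133a ratio has its lowest values in M.

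Over the 15 tissue samples the members moved together to different degrees, given here as Pearson's r of log2 normalized counts without a test, since the samples share group differences and depth. The value was 0.842 for miR-143 with miR-145, 0.729 for miR-143 with miR-1 and 0.698 for miR-145 with miR-1. miR-133a correlated at 0.626 with miR-143 and at 0.455 with its cluster partner miR-1. miR-133b stood at 0.154 with miR-1 and at 0.676 with miR-133a, and since these miRNAs are near-identical, how the counts divide between the 2 probes is uncertain.

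Likeness was ranked over miRNAs whose counts averaged at least 50 in tissue. Those most like miR-143 were miR-34b-5p with r = 0.934, miR-29c with 0.929 and miR-204 with 0.923. miR-34b-5p is a miRNA of ciliated cells, and it fell in M against CT by 4.82 on the log2 scale (edgeR adjusted p = 3.58e-05). miR-29c fell by 4.07 (adjusted p = 6.39e-05) and miR-204 by 6.69 (adjusted p = 9.22e-06). The miRNAs nearest to miR-145 were miR-143, then miR-129-3p at 0.824 and miR-204 at 0.819. For miR-1 they were miR-135a at 0.921, miR-141, an epithelial miRNA of the miR-200 family, at 0.901, and miR-30a at 0.866. The most similar to miR-133a were miR-1966 at 0.689, miR-1961 at 0.665 and miR-143, and to miR-133b miR-374 at 0.726, miR-450a-5p at 0.718 and the shared probe of miR-1937a and miR-1937b at 0.694.

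Other muscle and stroma miRNAs passed no test. Of the skeletal and heart muscle list, miR-206, miR-208a, miR-208b and miR-499, 0 of 4 were called in any comparison, and their summed normalized counts were 51.3 to 124.6 in M and 60.9 to 170.2 in CT. miR-206 was above the negative controls in 1 of 5 CT, 1 of 5 FT and 2 of 5 M samples, and its log2 fold change in M against CT was -0.11. The mesenchymal list, miR-199a-3p, miR-199a-5p and miR-214, which mark fibroblasts and other connective tissue cells, had 0 of 3 members called in any comparison. miR-199a-3p was at 699.5, 12317, 3891, 249 and 5732 normalized counts in M1, M2, M3, M4 and M6 and from 1453 to 3259.6 in CT, with a log2 fold change of 0.95 (SE 0.742, edgeR adjusted p = 0.381). M2, M3 and M6 lay above every control and M1 and M4 below, while for miR-145 M1 and M4 were the highest tumors. The other arm, miR-199a-5p, had M2 at 561 inside the CT range of 394 to 588 and M1, M3, M4 and M6 below it. Its log2 fold change was -0.75 (edgeR adjusted p = 0.294). miR-214 was at -0.47 (edgeR adjusted p = 0.355), with counts above the negative controls in 0 of 5 CT and 1 of 5 M samples.

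Among 5 regulators of the smooth muscle phenotype, 1 rose and 1 fell in M against CT. miR-21, which is raised when smooth muscle cells proliferate, was 2.08 higher on the log2 scale with an adjusted p of 0.0136. miR-26a, a regulator of smooth muscle differentiation, fell by 1.25 with an edgeR adjusted p of 0.0111. Normalized counts of miR-26a were 60.7 ± 6.74 (SD, n = 5) in CT and 25.5 ± 2.70 (SD, n = 5) in M. Its counts were above the negative controls in 4 of 5 CT and 2 of 5 M samples, so the level in most tumors is an upper limit. miR-221, miR-222 and miR-24 did not pass, with log2 fold changes of 0.01, 0.49 and -0.34. In FT against CT, M against FT and TS against CS 0 of these 5 were called.

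Some marker miRNAs of other cell types passed the test between M and CT, beside 8.66% of the panel higher and 8.13% lower. In the ciliated epithelium list 4 of the 5 miRNAs on the panel were lower in M, where their summed normalized counts were 26.4 to 74.6, against 326 to 3997 in CT. For the epithelial miR-200 family 1 of 5, miR-141, was lower, with sums of 205 to 36086 in M and 9717 to 11624 in CT. Of the 2 endothelial miRNAs miR-126-3p was higher by 1.36 on the log2 scale (edgeR adjusted p = 0.0354), and miR-126-5p from the same hairpin had a log2 fold change of -1.08 (edgeR adjusted p = 0.144). The summed level of both, most of it miR-126-3p, was 7779 to 17091 in M against 4453 to 7043 in CT. In the leukocyte list 1 of 5 was higher (miR-223, by 3.33), in the erythrocyte list 1 of 4 (miR-486, by 2.93) and in the liver list 1 of 3 (miR-122, by 2.42), and the others of these lists did not pass. A tumor deposit is another tissue than a tube, and the part of these cell types in the lower miR-143, miR-145 and miR-1 was not tested.

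In plasma the question was whether the members differed between mice with tumors and control mice. By edgeR 0 of 5 passed the threshold between TS and CS, with 0 at an unadjusted p under 0.05 and 0 by DESeq2. On the whole panel 0 of 566 miRNAs, or 0%, passed and 131, or 23.1%, had an unadjusted p under 0.05. All miRNAs had a median log2 fold change of -1.10, while that of the members was 0.40. Both depend on the scaling, with medians of -0.05 for all miRNAs and 1.29 for the members under TMM, 0.03 and 1.42 under median scaling, and 0.38 and 0.65 under ligation control scaling. Of all miRNAs, 87, or 15.4%, were lower without overlap in TS, among them 1 member, miR-133b. With 4 against 3 samples the exact permutation test has 35 splits and cannot go below p = 0.0571.

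miR-1 was the member with the widest range in plasma. Normalized counts were 183, 215 and 420.0 in CS2 to CS4 and 332, 842, 816 and 36.8 in TS1 to TS4. TS2 and TS3 exceeded all controls and TS4 was below all of them. The log2 fold change was 0.89 with an SE of 0.805 (edgeR adjusted p = 0.432, exact permutation p = 0.914). All 7 raw counts, from 34 to 996, were above the negative controls.

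The skeletal muscle miRNA miR-206 ordered the plasma samples in much the same way. It was at 47.5, 50.5 and 71.3 in CS2 to CS4 and at 47.9, 158, 200.1 and 11.7 in TS1 to TS4, with raw counts above the negative controls in CS4, TS2 and TS3. Pearson's r between miR-1 and miR-206 was 0.972 over the 7 plasma samples and -0.05 over the 15 tissue samples, where most miR-206 counts were not above the negative controls, and between miR-1 and miR-133a 0.873 in plasma. In plasma miR-133a was above the negative controls in the same 3 samples, CS4, TS2 and TS3, at 91.9, 56.6 and 114 normalized counts. The miR-206 counts of CS2, CS3, TS1 and TS4 were not above the negative controls. The plasma r of 0.972 thus rests in part on scaled background counts. Among CS4, TS2 and TS3, miR-206 was highest in TS3 and miR-1 in TS2. The plasma samples are few, they share the plasma scaling, and the values are a description.

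**Figure D4:**
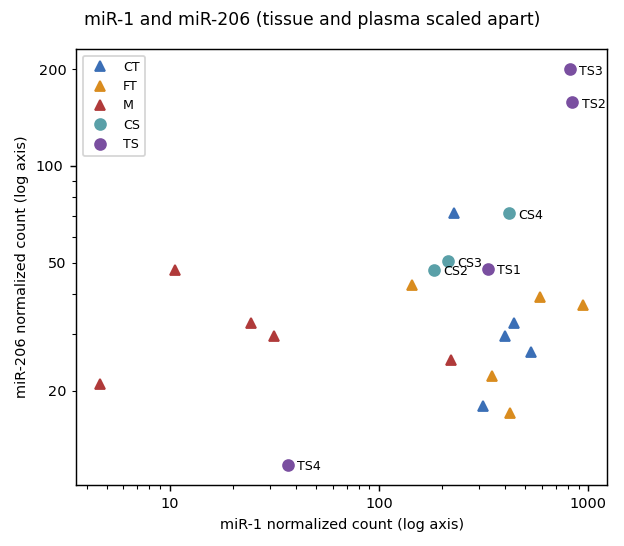
Normalized counts of miR-1 (x axis) against miR-206 (y axis), both on log axes, for plasma (circles, named) and tissue (triangles), which were scaled apart. Plasma points rise from TS4 at 36.8 and 11.7 to TS3 at 816 and 200.1. Among them miR-206 was above the negative controls in CS4, TS2 and TS3 only. The tissue points, most of whose miR-206 counts were not above the negative controls, have an r of -0.05.

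The smooth muscle pair was detected to different degrees in plasma. miR-143 was at 67.9, 82.1 and 51.2 in CS2 to CS4 and at 39.4, 211, 110.2 and 23.0 in TS1 to TS4, and 1 of 3 CS and 3 of 4 TS counts exceeded the negative controls. TS2 and TS3 lay above the controls and TS1 and TS4 below them, and the log2 fold change was 0.54 with an SE of 0.741 (edgeR adjusted p = 0.596). CS2, CS3 and TS1, at raw counts of 20, 13 and 28, were not above the negative controls. CS2 and CS3 also had the lowest miRNA totals in plasma, 36639 and 18350. TS4, at a raw count of 43, was above its negative controls, as was CS4. The place of TS4 below CS4 thus compares detected counts, while its place below CS2 and CS3 is uncertain. miR-145 was above the negative controls in all 7 plasma samples, at 268, 246 and 178 in CS2 to CS4 and at 260.4, 389, 361 and 205 in TS1 to TS4. Its log2 fold change was 0.40 with an SE of 0.668 (edgeR adjusted p = 0.658), and the groups overlapped through TS1 and TS4.

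miR-133b was lower in all TS than in all CS samples, at 12.0 ± 6.57 (SD, n = 4) against 34.2 ± 14.8 (SD, n = 3) normalized counts, with a log2 fold change of -1.46 and an edgeR adjusted p of 0.230. None of these counts, 8 to 16 in TS and 8 to 43 in CS, was above the negative controls of its sample, so no level can be read from them. miR-133a had a log2 fold change of -0.21 with an SE of 0.732 (edgeR adjusted p = 0.841).

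**Figure D5:**
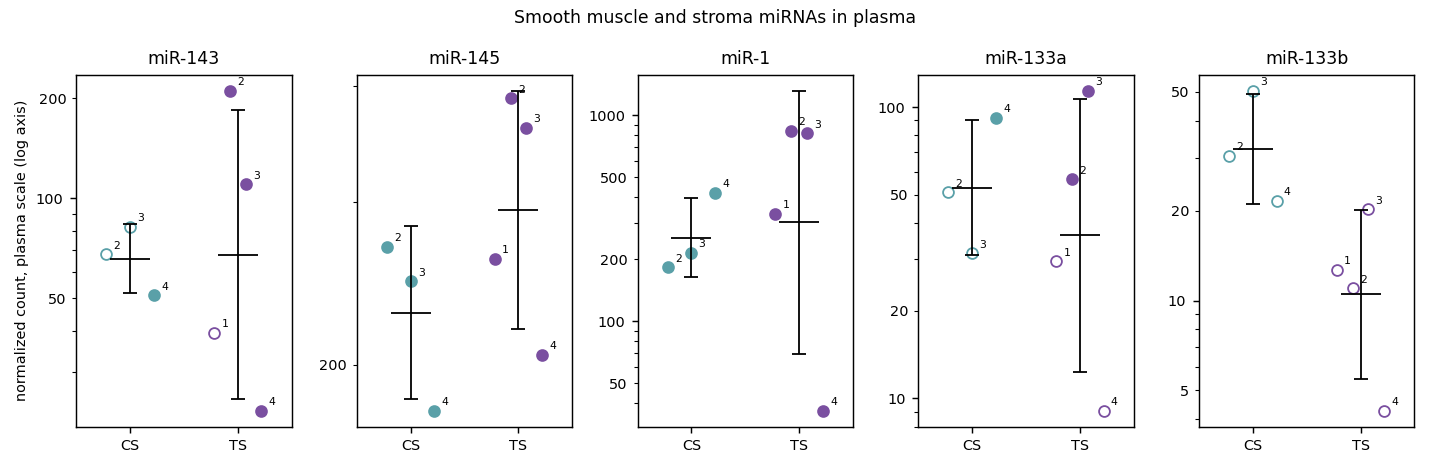
Normalized counts on the plasma scale (log axes, one panel per miRNA) in control plasma (CS) and plasma of mice with tumors (TS), with replicate numbers beside the points, filled points above the sample's negative controls and open points not above them; black bars are the mean ± SD of log2 values. In the miR-143, miR-1 and miR-133a panels TS2 and TS3 are the highest TS samples and TS4 the lowest, and all miR-133b points are open.

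Values of tube and plasma from the same mouse are given side by side as a description. The mouse of FT5 and TS4 had 4491 normalized counts of miR-143 in its tube, the second highest of all CT and FT, and 23.0 in plasma, the lowest of the 7. This lowest rank is uncertain, since the miR-143 counts of CS2, CS3 and TS1 were not above the negative controls while that of TS4 was. That of FT4 and TS3 had the lowest miR-143 of the tubes, 546, and the second highest plasma level, 110.2. The mouse of FT3 and TS2 was highest in both, at 5739 and 211. For miR-1 the tube FT4 was the highest, at 947, and its plasma TS3 was at 816, next to TS2 at 842. The relation between tube and plasma was not tested.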

How the data were processed

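The authors deposited whole barcode counts for the 626 probes of the NanoString mouse miRNA panel (nCounter, version 1.5), with an input of 100 ng for tissue and 10 ng for plasma. Their nSolver normalization is not carried by these counts and was repeated here, with each sample's own 100 (tissue) or 30 (plasma) most abundant miRNAs. Whether a fixed set was used is not given in the sources used here. Columns without a sample numbered 0, and the 60 other probes were not tested.

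Counts of the 566 miRNAs were tested with edgeR 4.0.16 (R 4.3.3). Library sizes were these geometric means, p-values were adjusted by Benjamini and Hochberg, and the threshold was 0.05. SEs are the fold change over the root of the quasi-likelihood F. Exact permutation tests, two-sided, used mean log2 normalized counts (scipy 1.17.1, Python 3.11.15). The script was tested on simulated data. Alternatives used DESeq2 1.42.0, limma 3.58.1, other scalings, minimum mean counts of 20 and 50, background subtraction, a replicate block and each sample left out. Named are the members, the 3 miRNAs most like each over tissue, and the related lists. The members and lists were chosen with earlier results of these data known. M5 and CS1, left out by the study, were not used here. Further alleles of these mice are not reported here.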

Additional observations from a re-analysis of the deposited data

Results flagged for a closer look

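The 32 groups of values of the 5 miRNAs and their ratios that had at least 4 samples were searched for a sample far from the others, and chance alone marks about 1 in 20 such groups. In 1 of them, log2 normalized miR-133b in FT, the lowest sample FT1 was separated from the next by 0.736 of the whole range of the group. The raw count of miR-133b in FT1 was 10, which was not above the negative controls of that sample, and its normalized count was 3.71 against 19.3 to 35.0 in the other induced FT. FT1 had the highest total of all tissue samples, 598321 counts on miRNAs.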

How the results depend on the processing

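miR-143, miR-145 and miR-1 were lower in M than in CT under all 25 alternatives, with log2 fold changes from -3.07 to -2.17, from -2.76 to -1.56 and from -4.38 to -2.04, and with calls in 24, 21 and 21 of them. The number of members called was 1 with miR-425 scaling (miR-143), 1 with ligation control scaling (miR-1) and 1 with the methods' t-test (miR-143). It was between 2 and 4 with a sample left out. Before adjustment the methods' t-test called 3 members in M against CT, beside 155 of all miRNAs on the panel. In M against FT, 3 members were called by DESeq2, 1 by limma with a pseudocount of 1, 1 by limma with a pseudocount of 10 and 2 with CT, FT and M fitted together, and from 0 to 2 with a sample left out (2 without FT2, 1 without M4). Sample numbers did not pair the samples, since same-numbered samples did not all deviate together (r from -0.37 to 0.32). With the replicate block 3 members were called in M against CT, 0 in M against FT, 0 in FT against CT and 1 in plasma, miR-133b at -1.72 with an edgeR adjusted p of 0.00856, and 64, 1, 0 and 225 of all miRNAs. In FT against CT the sign was not stable. miR-143 was at 0.017 with TMM, 0.066 with median, 0.22 with miR-425 and 0.049 with fixed set scaling, and from -0.63 to 0.18 with a sample left out. miR-145 was at 0.022 with median, 0.098 with miR-425 and 0.24 with ligation control scaling, and from -0.87 to 0.067 with a sample left out. With miR-425 scaling miR-133a was at 0.36 and miR-133b at 0.038, and miR-1 ran from -0.032 to 0.58 with a sample left out. In M against FT miR-133b was at 0.24 with ligation control scaling, 0.15 with quantile normalization, 0.031 with limma and a pseudocount of 1, 0.061 with the methods' t-test and 0.12 with the block, and from -0.46 to 0.13 with a sample left out. In plasma miR-133a was at 0.11 with TMM, 0.22 with median, 0.24 with miR-425, 0.33 with fixed set scaling, 0.60 with quantile normalization and 0.28 with the negative controls subtracted, and from -0.93 to 0.30 with a sample left out, and miR-143 ran from -0.21 to 0.87. With the negative controls subtracted, the plasma difference in log2 ratio was 0.87 for miR-143 over miR-145 and -0.14 for miR-1 over miR-133a, and with a sample left out miR-143 over miR-145 in M against FT ran from -0.32 to 0.39. The causes of these changes were not tested.

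Over all miRNAs, 95 were called in M against CT, 49 higher and 46 lower, beside 151 with TMM, 163 with median scaling, 151 with DESeq2, 159 with the negative controls subtracted, 48 (39 higher and 9 lower) with ligation control scaling, 45 by the methods' t-test, 62 with the 3 tissue groups together, 60 without CT2 and 63 without CT3. The split was 70 higher and 10 lower with miR-425 scaling and 58 and 24 with fixed set scaling. These scalings moved the median of all miRNAs from 0.02 to 0.66 and 0.29, and to 0.45 with ligation control scaling. In M against FT the 11 calls became 35 with DESeq2, 23 with the groups together, 25 without FT2 and 2 with miR-425 scaling, and from 0 to 14 otherwise. The 5 higher and 6 lower there became 3 and 7 with TMM or median, 5 and 4 with fixed set, 2 and 4 with ligation control scaling and 3 and 2 with quantile normalization. In plasma the 0 calls became 173 without CS4, and the median of -1.10 over all miRNAs was -0.05 with TMM, 0.03 with median and 0.38 with ligation control scaling. In FT against CT the 1 call became 9 without FT5 and 0 to 4 otherwise, and the median of -0.02 was 0.64 with miR-425 scaling. miR-133a and miR-133b had too few counts to be tested under some minimum counts.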
